A study of Homo sapiens with 9 samples.

Results

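The glutathione transferases described here are 9 of the 19775 genes that the arrays measured, namely the mu class genes GSTM3 and GSTM4, the pi class gene GSTP1, the omega class gene GSTO1, the kappa class gene GSTK1, the alpha class gene GSTA4 and the membrane-bound enzymes MGST1, MGST2 and MGST3. Every probe set that the array annotation assigns to one of these genes was taken, which gave 19 of 54613 probe sets. GSTM3 was chosen by its own signals, because it was lower in both actin lines than in the parental line, so its differences from the parental line are given as a description without a test. The other 8 genes were taken as further transferases of the same cells. The list of members was drawn up with earlier results of these data known.

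Expression was profiled in 3 HaCaT lines on Affymetrix U133 Plus 2.0 arrays, with 3 arrays per line. HaCaT is a human keratinocyte line that became immortal spontaneously. NLS-actin cells stably expressed β-actin fused to green fluorescent protein and a nuclear localization sequence, WT-actin cells stably expressed the same fusion without that sequence, and the parental HaCaT cells carried neither construct. Each actin line is a single stable line obtained by transfection and drug selection, so that what the construct did and what set that line apart cannot be told apart. In the methods the arrays are termed experimental replicates, and no source used here says that they came from separate cultures, so the p values measure the spread between arrays, which may be technical.

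Values are linear intensities from the MAS5 algorithm, called signals here, and every array was scaled to the same trimmed mean (500.04 to 500.06). The median signal of an array was 29.7 to 43.3, and 25.1 to 31.1 percent of its probe sets lay below 10. All 8 keratinocyte markers with a probe set of their own were above the median level of all genes, while none of the measured melanocyte, leukocyte, endothelial or hepatocyte markers was, and 1 of 6 fibroblast markers was. The summed keratinocyte signal was 59348 to 65862 in NLS-actin cells, 55037 to 69775 in WT-actin cells and 42208 to 57772 in parental cells, and its part in the results below was not tested. The brightest probe set of ACTB, the gene carried by both constructs, read 14473, 13886 and 15475 in NLS-actin cells, 22131, 15924 and 14097 in WT-actin cells, and 8874, 13241 and 14977 in parental cells, with overlapping lines. NLS-actin replicate 2, WT-actin replicate 1 and parental replicate 2 stood apart from the other arrays of their lines. Over the genes above the median level, the deviations of NLS-actin replicate 2 from its line mean correlated with those of parental replicate 2 at 0.79. With those of WT-actin replicate 1 they correlated at 0.60, and the latter 2 arrays correlated at 0.59. The first principal component of the within-line deviations of these genes took up 57.9 percent of their variance. Values without these 3 arrays are given for the members they move most.

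Glutathione transferases join the thiol of glutathione to electrophilic compounds, such as drugs, pollutants and products of lipid peroxidation, and many of them also reduce peroxides. The soluble enzymes fall into classes named by Greek letters, whose genes often lie in clusters, and the membrane-bound enzymes belong to a separate family that also includes enzymes of leukotriene and prostaglandin synthesis. In epidermis these enzymes are part of the defence against chemicals and oxidants, and the pi class enzyme is typically the prominent soluble form in keratinocytes. Several family genes are known targets of NRF2, a transcription factor that binds antioxidant response elements.

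GSTM3 lies on chromosome 1 at 109733937 to 109741038 on the minus strand of GRCh38.p14 in the RefSeq annotation, at one end of the mu class cluster. GSTM4 (109656099 to 109667727), GSTM2 (109668057 to 109683997), GSTM1 (109687817 to 109693745) and GSTM5 (109711751 to 109718268) lie on its low-coordinate side on the plus strand. The 250 bases before the annotated RefSeq starts of GSTM3 and GSTM4 are shown because they lie at opposite ends of the cluster and differ in base composition. Each reads 5′ to 3′ along the strand of its gene, with CpG dinucleotides in capitals, at chr1:109741039-109741288 for GSTM3 and chr1:109655849-109656098 for GSTM4.
GSTM3: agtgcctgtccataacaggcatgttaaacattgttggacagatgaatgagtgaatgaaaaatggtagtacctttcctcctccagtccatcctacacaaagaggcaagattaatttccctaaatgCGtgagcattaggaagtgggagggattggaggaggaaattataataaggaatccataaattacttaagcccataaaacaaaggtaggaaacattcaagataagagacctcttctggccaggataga
GSTM4: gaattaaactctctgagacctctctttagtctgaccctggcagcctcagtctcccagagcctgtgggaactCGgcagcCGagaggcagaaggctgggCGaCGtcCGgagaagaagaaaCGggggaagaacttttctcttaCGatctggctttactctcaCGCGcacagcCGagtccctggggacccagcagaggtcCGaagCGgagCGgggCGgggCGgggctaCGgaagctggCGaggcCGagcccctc

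The GSTM3 window held 1 CpG and 40 percent G and C, while the GSTM4 window held 18 CpG and 62.4 percent. Among all 35116 promoters of that table the median was 11 CpG, and 14.7 percent had at most 1. The other family members in the table had 28 (GSTP1), 14 (GSTO1), 15 (GSTK1), 11 (GSTA4) and 16 (MGST3), and the 3 annotated starts of MGST1 had 12, 19 and 3. The core of the antioxidant response element, searched on both strands as TGACNNNGC, was found before the starts of GSTP1, GSTO1 and GSTA4, which is 3 of 8 member genes against 10.9 percent of all promoters. A GC box core, GGGCGG, was found for 6 of 8 (GSTM4, GSTP1, GSTO1, GSTK1, MGST1 and MGST3) against 42.6 percent. TATAAA was found for GSTO1 and MGST1 (2 of 8) against 10.7 percent. A member gene counted if any of its starts had the match, and MGST1 has 3 starts. The percentages of all promoters count each promoter singly, so the shares are not fully alike. None of the 3 motifs occurs in the GSTM3 window, which says only that those letters are not there. The match of GSTP1 is shown in its 50 bases at chr11:67583726-67583775 on the plus strand, which run from 86 to 37 bases before the start, with the 9 matched letters in capitals.
GSTP1: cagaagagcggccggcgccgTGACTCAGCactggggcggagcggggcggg

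GSTM3 encodes a mu class enzyme that conjugates glutathione to electrophiles. Its brighter probe set read 56.9, 144 and 73.8 in NLS-actin cells, 205, 132.8 and 228 in WT-actin cells, and 746, 645 and 543 in parental cells. All 6 arrays of the actin lines lay below all 3 parental arrays, and the NLS-actin and WT-actin arrays overlapped through NLS-actin replicate 2. The means were 91.4 ± 45.9 in NLS-actin, 189 ± 49.9 in WT-actin and 645 ± 102 in parental cells (SD, n = 3 each). On the log2 scale NLS-actin cells were lower than parental cells by a difference of -2.92 (SE 0.35), or 7.57-fold, and WT-actin cells by -1.80 (SE 0.35), or 3.47-fold. A lower signal cannot tell fewer cells with the transcript from less RNA per cell. These are the values that selected the gene. A high rank among falls therefore follows from the choice and is no test. As a description, 96 of 19775 genes had a larger fall in NLS-actin cells and 582 in WT-actin cells.

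The second GSTM3 probe set was dim, with 5.15, 20.1 and 18.9 in NLS-actin cells, 17.9, 29.3 and 18.1 in WT-actin cells, and 52.1, 53.8 and 25.8 in parental cells. All 3 NLS-actin arrays lay below the parental arrays, whereas WT-actin replicate 2 lay above parental replicate 3. Its log2 differences from the parental line were -1.73 in NLS-actin cells and -0.97 in WT-actin cells, in the direction of the brighter probe set and smaller. The 2 probe sets had a Pearson correlation of 0.81 over the 9 arrays, which share lines and arrays. The dim probe set correlated about as highly with the brightest MGST1 probe set, also dim (0.82), so the value is not particular to GSTM3.

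**Figure D1:**
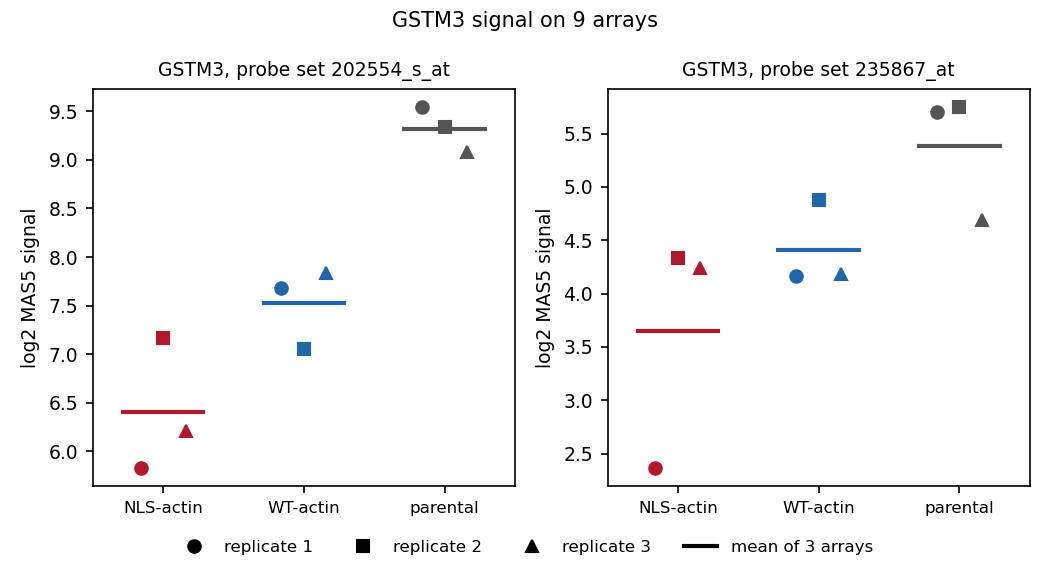
The log2 of the MAS5 signal of both GSTM3 probe sets in the 9 arrays, in the order NLS-actin, WT-actin and parental, each point 1 array and each horizontal line the mean of 3 arrays. As linear signals, the brighter probe set read 543 to 746 in the parental arrays and at most 228 in the actin lines, and NLS-actin replicate 2 (144) lay above WT-actin replicate 2 (132.8).

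The difference between the actin lines was not used to choose GSTM3, but it shares its arrays with the differences that were. Its p value is therefore not independent of the choice. In NLS-actin cells the brighter probe set was lower than in WT-actin cells by -1.12 (SE 0.35, 95 percent confidence interval -1.89 to -0.36), or 2.18-fold. In the limma fit over all genes its p was 0.00768 and its adjusted p 0.248, above the threshold of 0.05. Omission of single arrays gave differences of -1.51 (adjusted p = 0.0549, without NLS-actin replicate 2) to -0.84 (adjusted p = 0.564, without NLS-actin replicate 1). Without all 3 arrays that stood apart the difference was -1.43 and the adjusted p 0.102. The dim probe set gave -0.76 (SE 0.65) with an adjusted p of 0.863 over all probe sets. The ratio of the 3′ to the 5′ control probe sets of ACTB, which rises where labelled copies stop short of the 5′ end, was 12.8 on NLS-actin replicate 2 against 6.96 and 7.98 on the other 2 arrays of that line, whereas the same ratio for GAPDH was 1.64 against 1.69 and 1.95, the lowest of the line. The part of either in the GSTM3 value of 144 was not tested.

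GSTM4 is the mu class gene farthest from GSTM3 in the cluster. Its brighter probe set read 55.8, 225 and 96.8 in NLS-actin cells, 172, 87.0 and 142 in WT-actin cells, and 115, 201 and 139 in parental cells. The 3 lines overlapped, and the NLS-actin arrays covered the range of both other lines. The log2 difference was -0.47 between NLS-actin and parental cells (95 percent interval -1.50 to 0.57, adjusted p = 0.903), -0.20 between WT-actin and parental cells (-1.24 to 0.84, adjusted p = 0.964) and -0.27 between NLS-actin and WT-actin cells (-1.30 to 0.77, adjusted p = 0.929). Without the 3 arrays that stood apart, the difference between NLS-actin and parental cells was -0.78 (adjusted p = 0.702) and that between NLS-actin and WT-actin cells -0.60 (adjusted p = 0.685). The other GSTM4 probe set read 90.6, 109.8 and 68.0 in NLS-actin cells, 115, 101 and 139 in WT-actin cells, and 92.7, 191 and 165 in parental cells, with a log2 difference of -0.70 between NLS-actin and parental cells (adjusted p = 0.802 over all probe sets).

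Mu class transcripts are closely similar in sequence, and the array maker marks probe sets that may match several transcripts by the endings _x_at and _s_at. None of the 19 member probe sets carries more than 1 gene symbol, against 1801 of the 54613 in the series, so none is shared between GSTM genes by annotation. By its ending, however, the brighter GSTM3 probe set is of the _s_at kind, the dim one is of neither kind, and GSTM4 has 1 _x_at and 1 _s_at probe set, while both probe sets of GSTM1 and the only one of GSTM2 are _x_at. The brighter GSTM4 probe set and a GSTM1 probe set had a Pearson correlation of 0.91 over the 9 arrays, and whether these are separate measurements was not tested. The brighter GSTM3 probe set had correlations of 0.14 to 0.67 with the probe sets of the other mu class genes. All such correlations share arrays and lines and are descriptions.

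GSTM1, GSTM2 and GSTM5 complete the measured cluster. GSTM1 read 97.4, 204 and 103 in NLS-actin cells, 109, 165 and 139.8 in WT-actin cells, and 109, 263 and 135 in parental cells on one probe set, and 20.3 to 119, 48.2 to 109.7 and 80.9 to 128 in those lines on the other. GSTM2 read 132, 142 and 77.8 in NLS-actin cells, 106, 124 and 109.5 in WT-actin cells, and 127, 145 and 125 in parental cells. All 3 WT-actin arrays of GSTM2 lay below the parental arrays, narrowly (124.07 against 124.89). Arrays of these lines did not overlap, in either direction, for 12.3 percent of all genes. GSTM5 gave at most 14.7 on any array. The log2 differences of the GSTM1 and GSTM2 probe sets from the parental line lay between -0.85 and -0.22 in NLS-actin cells and between -0.39 and -0.21 in WT-actin cells and were negative throughout, as those of both GSTM4 probe sets were, and none of these probe sets passed the threshold.

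**Figure D2:**
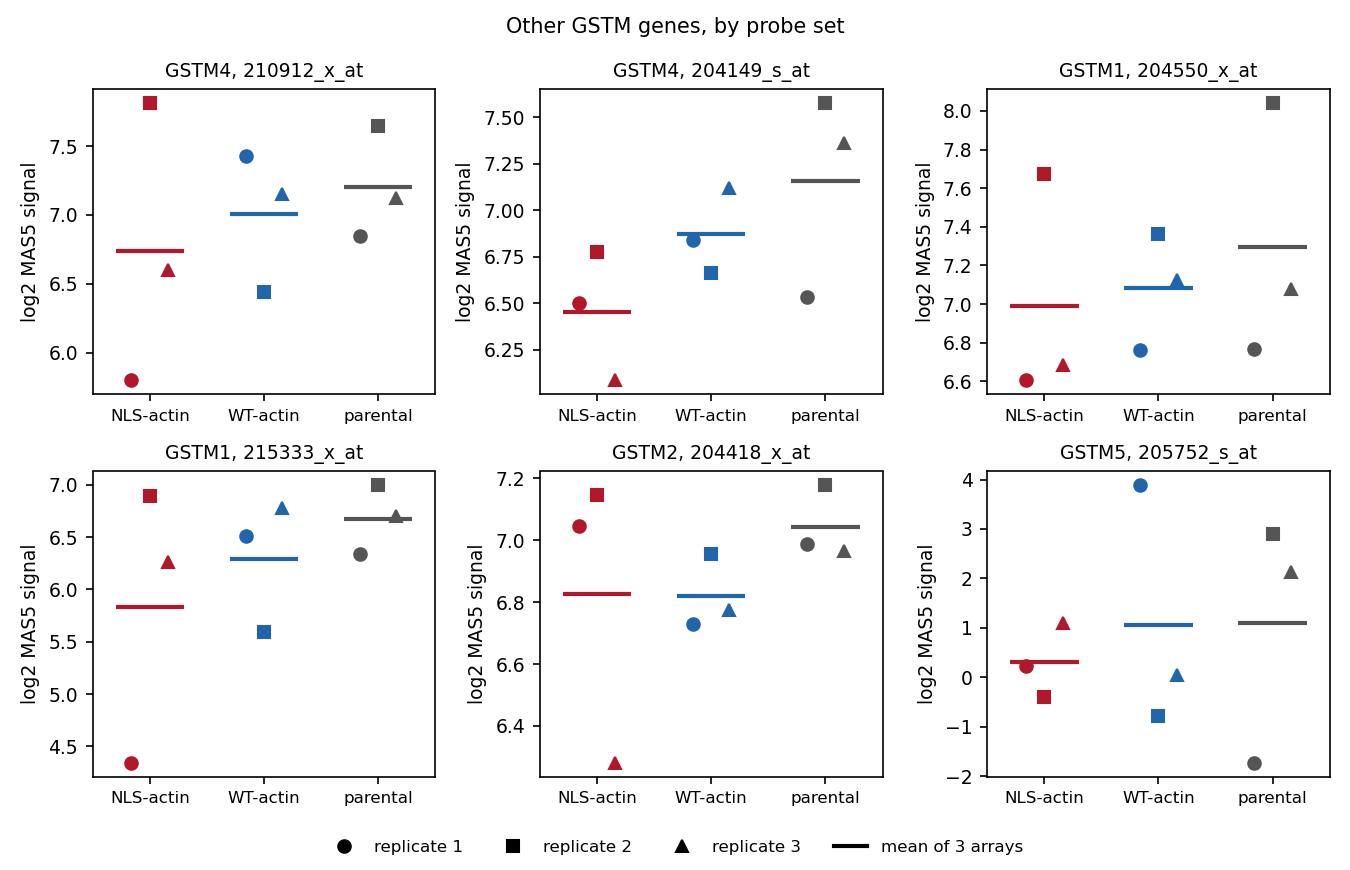
The log2 of the MAS5 signal of each probe set of GSTM4, GSTM1, GSTM2 and GSTM5, 1 panel per probe set, with 1 point per array, a horizontal line at the mean of 3 arrays and the lines in the order NLS-actin, WT-actin and parental. In no panel do the 3 NLS-actin arrays lie wholly below the parental arrays, while the 3 WT-actin arrays of GSTM2 do, narrowly. GSTM5 gave a linear signal of at most 14.7.

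GSTP1, the pi class enzyme, was bright on every array. It read 5964, 7161 and 6989 in NLS-actin cells, 4735, 6546 and 8082 in WT-actin cells, and 4044, 6664 and 7962 in parental cells. The parental and WT-actin arrays spread about as widely as each other and enclosed all NLS-actin arrays. The log2 difference was 0.16 between NLS-actin and parental cells (95 percent interval -0.37 to 0.69, adjusted p = 0.935) and 0.07 between WT-actin and parental cells (-0.45 to 0.60, adjusted p = 0.973). Between NLS-actin and WT-actin cells it was 0.08 (-0.44 to 0.61, adjusted p = 0.96).

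GSTO1, an omega class enzyme that reduces dehydroascorbate and forms disulfides with glutathione, had the closest replicates. Its brighter probe set read 4006, 4148 and 3878 in NLS-actin cells, 4578, 4284 and 4453 in WT-actin cells, and 3919, 4150.2 and 3991 in parental cells. All 3 WT-actin arrays lay above all parental and all NLS-actin arrays. The excess was small, with a log2 difference of 0.14 between WT-actin and parental cells (95 percent interval -0.11 to 0.39, adjusted p = 0.856) and -0.15 between NLS-actin and WT-actin cells (-0.40 to 0.10, adjusted p = 0.797). NLS-actin and parental cells averaged 4010 ± 135 and 4020 ± 118 (SD, n = 3 each), and the interval of their log2 difference was -0.25 to 0.25. The second probe set, 1811 to 1995 in NLS-actin, 1693 to 2539.7 in WT-actin and 1899 to 2179 in parental cells, did not separate the lines, and its correlation with the first was 0.064 over the 9 arrays.

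GSTK1, the kappa class enzyme of mitochondria and peroxisomes, read 5258, 7551 and 5847 in NLS-actin cells, 9375, 7193 and 5094 in WT-actin cells, and 5099, 6678 and 5419 in parental cells. The lines overlapped, and WT-actin replicate 1 was the highest of the 9 arrays. The log2 difference was 0.11 between NLS-actin and parental cells (95 percent interval -0.35 to 0.58, adjusted p = 0.953) and 0.30 between WT-actin and parental cells (-0.17 to 0.76, adjusted p = 0.836). It was -0.19 between NLS-actin and WT-actin cells (-0.65 to 0.28, adjusted p = 0.872).

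GSTA4, an alpha class enzyme with a preference for 4-hydroxynonenal, a product of lipid peroxidation, spread most between replicates among members with signals above 20. Its brighter probe set read 70.8, 424 and 98.6 in NLS-actin cells, 106, 48.4 and 20.5 in WT-actin cells, and 123, 339.8 and 88.3 in parental cells. The WT-actin arrays were the lowest 2 of the 9 and 1 that lay among the others. WT-actin cells differed from parental cells by -1.71 on the log2 scale (SE 0.74, 95 percent interval -3.33 to -0.09). In the limma fit over all genes its p was 0.0406 and its adjusted p 0.734, which did not pass the threshold. NLS-actin cells differed from WT-actin cells by 1.60 (-0.02 to 3.22, adjusted p = 0.534) and from parental cells by -0.11 (-1.73 to 1.52, adjusted p = 0.988). Without the 3 arrays that stood apart these differences were -1.72 (adjusted p = 0.385), 1.41 (0.306) and -0.32 (0.904). The dimmer probe set read 22.0, 109 and 18.1 in NLS-actin cells, 25.1, 21.9 and 0.533 in WT-actin cells, and 21.1, 82.2 and 26.6 in parental cells, and correlated with the first at 0.88 over the 9 arrays.

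The membrane-bound enzymes MGST2 and MGST3 reduce lipid hydroperoxides, and MGST2 can also make leukotriene C4. MGST2 read 2039.8, 3132 and 2124 in NLS-actin cells, 2131, 1473 and 1640.0 in WT-actin cells, and 1927, 2532 and 1595 in parental cells. NLS-actin and WT-actin arrays overlapped through WT-actin replicate 1, the highest of its line. The log2 difference between NLS-actin and WT-actin cells was 0.47 (95 percent interval -0.02 to 0.95, adjusted p = 0.544). Against the parental line it was 0.27 in NLS-actin cells (-0.21 to 0.75, adjusted p = 0.876) and -0.20 in WT-actin cells (-0.68 to 0.28, adjusted p = 0.9).

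The bright probe set of MGST3 read 4961, 6423 and 5189 in NLS-actin cells, 6675, 5249 and 5654 in WT-actin cells, and 4267, 5365 and 5252 in parental cells, with overlapping lines. Its log2 differences were 0.15 for NLS-actin minus parental (95 percent interval -0.18 to 0.49, adjusted p = 0.9), 0.24 for WT-actin minus parental (-0.09 to 0.57, adjusted p = 0.806) and -0.09 for NLS-actin minus WT-actin (-0.42 to 0.25, adjusted p = 0.928). The other 2 MGST3 probe sets were dim, with signals of 12.6 to 89.0 and 0.425 to 12.6.

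MGST1, an enzyme of the endoplasmic reticulum and outer mitochondrial membrane that is activated when its thiol is modified, was dim on all of its 5 probe sets, with signals of 0.299 to 17.7. The brightest read 0.683, 11.3 and 9.79 in NLS-actin cells, 1.61, 6.35 and 4.75 in WT-actin cells, and 9.92, 17.7 and 11.4 in parental cells. All WT-actin arrays lay below the parental arrays, at signals where a large share of all probe sets lies. The log2 differences, -1.58 for NLS-actin and -1.79 for WT-actin cells against parental cells, had 95 percent intervals of -3.99 to 0.83 and -4.20 to 0.62 and adjusted p values of 0.854 and 0.798. NLS-actin minus WT-actin was 0.21 (-2.19 to 2.62, adjusted p = 0.982).

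**Figure D3:**
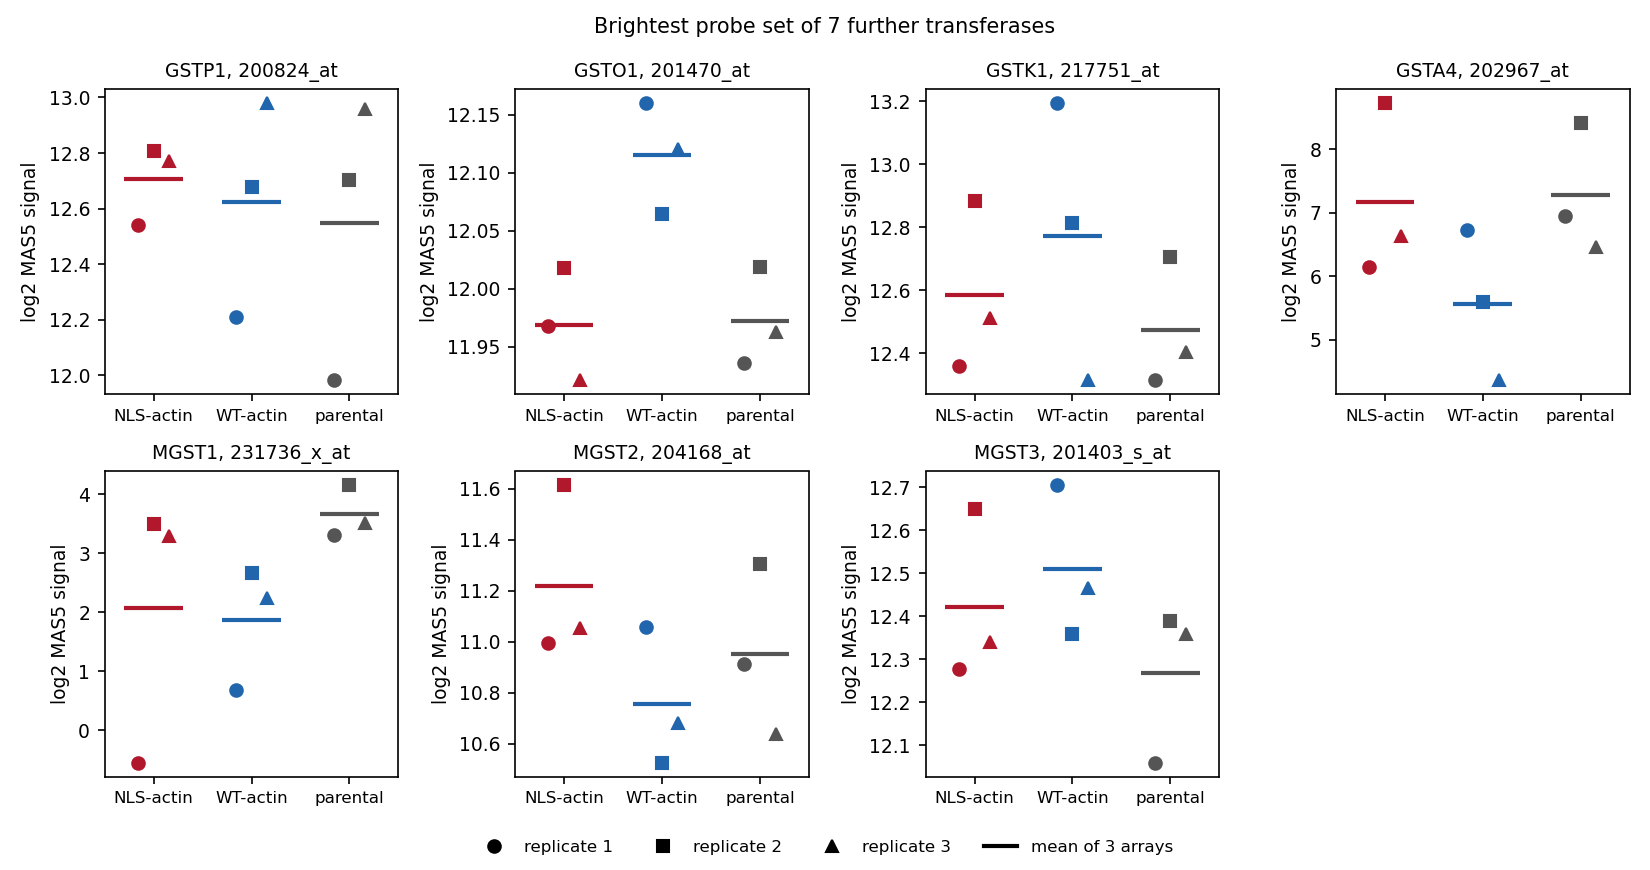
The log2 of the MAS5 signal of the brightest probe set of the 7 transferases other than GSTM3 and GSTM4, 1 panel per gene with its own axis, with 1 point per array, a horizontal line at the mean of 3 arrays and the lines in the order NLS-actin, WT-actin and parental. The lines overlap in most panels, all WT-actin arrays of GSTO1 lie above the other lines, and the linear signals of MGST1 reach at most 17.7.

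Counted over the family, none of the 8 genes other than GSTM3 passed an adjusted p of 0.05 between NLS-actin and parental cells, where 0.131 percent of all genes passed. None had an unadjusted p under 0.05 (6.44 percent of all genes), and in none did the 3 NLS-actin arrays lie wholly to one side of the parental arrays (13.9 percent of all genes). By sign, 4 were higher and 4 lower. Between WT-actin and parental cells none of the 8 passed, where 0.167 percent of all genes did. GSTA4 was the 1 gene with an unadjusted p under 0.05 (background 6.69 percent), and GSTO1 and MGST1 were the 2 whose arrays did not overlap (background 12.3 percent). Between NLS-actin and WT-actin cells none of all 9 passed, where 0.728 percent of genes did. GSTM3, chosen by differences that share these arrays, was the 1 with an unadjusted p under 0.05 (background 9.47 percent). GSTO1 was the 1 whose arrays did not overlap (background 13.9 percent). With backgrounds under 1 percent, no passing gene among 8 or 9 is close to the share of all genes.

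By probe set the counts were likewise 0 of 17 between NLS-actin and parental cells (background 0.0769 percent of probe sets), 0 of 17 between WT-actin and parental cells (0.103 percent) and 0 of 19 between NLS-actin and WT-actin cells (0.364 percent). The precision differed widely between members. For GSTO1 the 95 percent interval of NLS-actin minus parental ran from -0.25 to 0.25 on the log2 scale. For GSTP1, GSTK1, MGST2 and MGST3 no bound of an interval against the parental line was as large as 0.8 in absolute value. For GSTA4 and MGST1 the intervals were wider than 3 log2 units.

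**Figure D4:**
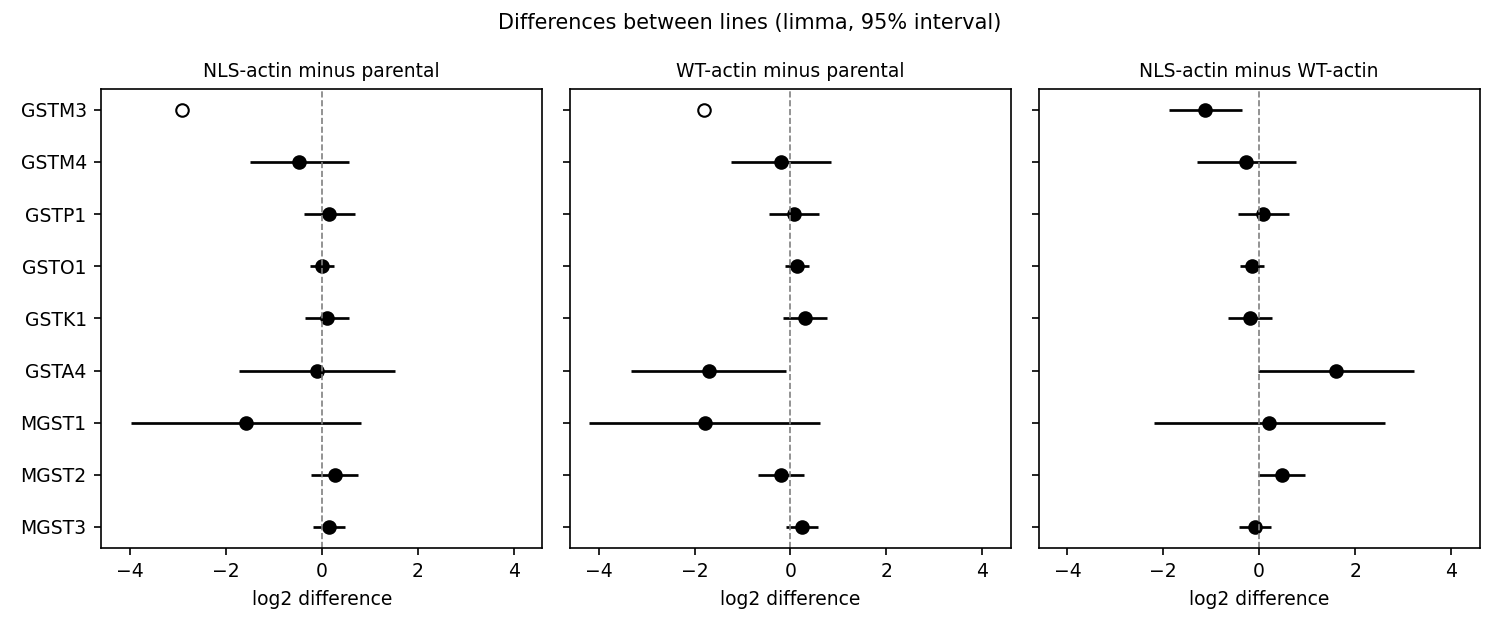
Log2 difference in signal for each transferase in the 3 comparisons, NLS-actin minus parental, WT-actin minus parental and NLS-actin minus WT-actin, with 95 percent confidence intervals from limma as horizontal lines. The differences of GSTM3 from the parental line (-2.92 and -1.80) are open points without an interval because they chose the gene, and GSTO1 has the narrowest intervals (-0.25 to 0.25 for NLS-actin minus parental).

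In most members the array with the highest signal of its line was the one that stood apart. GSTM4, GSTO1, GSTK1, GSTA4, MGST2 and MGST3, 6 of the 9 members, were at the highest signal of their line on NLS-actin replicate 2, on WT-actin replicate 1 and on parental replicate 2 alike, as were 15.5 percent of all genes (3059), and no member was at the lowest on all 3, as were 9.2 percent (1819). Over the mean of the other 2 arrays of the line, GSTA4 was higher by 2.34, 1.75 and 1.71 log2 units on those arrays, GSTM4 by 1.61, 0.63 and 0.67, MGST2 by 0.59, 0.46 and 0.53, and GSTO1 by 0.07 on each. GSTM3 was higher by 1.15 on NLS-actin replicate 2, 0.24 on WT-actin replicate 1 and 0.02 on parental replicate 2. The 3′ to 5′ ratio of ACTB was the highest of its line on each of these arrays, at 12.8, 14.9 and 7.96. That of GAPDH was the highest of its line on WT-actin replicate 1 (3.07) and the lowest on NLS-actin replicate 2 (1.64) and parental replicate 2 (1.40), and the part of neither ratio in these values was tested. GSTA4 and MGST2, both among the 6, had a correlation of 0.85 over the 9 arrays, which include the 3 that stood apart.

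**Figure D5:**
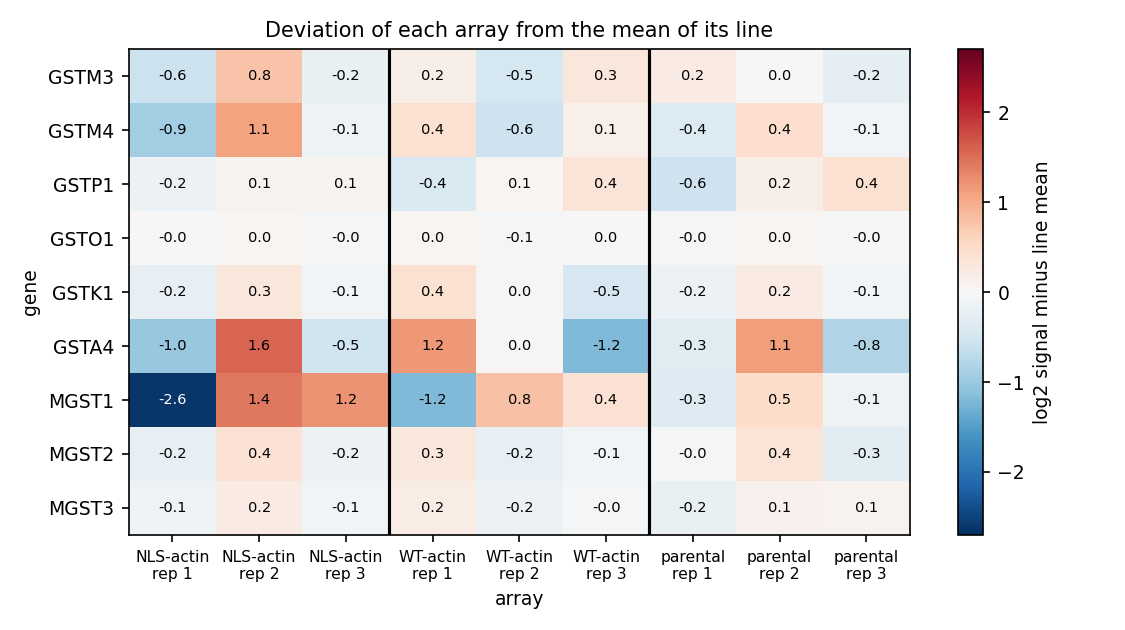
Heat map of the log2 signal of each transferase on each array minus the mean of its line, with genes as rows and arrays as columns in the order NLS-actin, WT-actin and parental and a colour scale of ± 2.7 log2 units. MGST1 and GSTA4 have the largest deviations, and NLS-actin replicate 2 is above its line mean for all 9 members.

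The rest of the glutathione pathway was read from lists of genes, none of which had a gene at an adjusted p under 0.05 in any of the 3 comparisons. The list of other transferases had 16 measured genes and also holds genes of leukotriene and prostaglandin synthesis, such as ALOX5AP and PTGES2. Of the 16, unadjusted p values under 0.05 were found for 2 genes between NLS-actin and parental cells, 3 between WT-actin and parental cells and 0 between NLS-actin and WT-actin cells. Of all genes, 6.44, 6.69 and 9.47 percent had such a p in these comparisons. The 16 genes had median log2 differences of 0.04, -0.15 and 0.05. Over all genes the medians were -0.005, -0.06 and 0.03. GSTT2, a theta class enzyme, read 153, 253 and 181 in NLS-actin cells, 166, 168 and 222 in WT-actin cells, and 240.4, 388 and 368 in parental cells. All WT-actin arrays and 2 of 3 NLS-actin arrays lay below the parental arrays, with log2 differences of -0.76 for NLS-actin (adjusted p = 0.637) and -0.82 for WT-actin (adjusted p = 0.58). HPGDS, the haematopoietic prostaglandin D synthase of the sigma class, was dim at 3.91 to 10.3 in NLS-actin, 3.17 to 12.2 in WT-actin and 0.545 to 1.90 in parental cells, and its adjusted p values against the parental line were 0.662 and 0.676.

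Among 19 measured genes of glutathione synthesis and turnover, 0, 1 and 1 had an unadjusted p under 0.05. The comparisons were NLS-actin minus parental, WT-actin minus parental and NLS-actin minus WT-actin, in this order. Of all genes, 6.44, 6.69 and 9.47 percent had such a p in these comparisons. The median log2 differences of the 19 genes were 0.03, 0.01 and 0.02. SLC1A4 is an amino acid transporter. It read 3197, 2690 and 2984 in NLS-actin cells, 2014, 2316 and 2855 in WT-actin cells, and 2509.8, 2210.0 and 2442 in parental cells. All NLS-actin arrays of SLC1A4 lay above the parental ones (log2 difference 0.31, adjusted p = 0.805). Arrays of these lines did not overlap, in either direction, for 13.9 percent of all genes. For SLC1A4, NLS-actin minus WT-actin was 0.32 (adjusted p = 0.572). GGT7, a member of the gamma-glutamyltransferase family, read 5.25, 42.3 and 7.73 in NLS-actin cells, 1.55, 1.82 and 5.30 in WT-actin cells, and 14.8, 37.9 and 6.998 in parental cells. Its log2 difference was 2.28 for NLS-actin minus WT-actin (adjusted p = 0.493) and -2.68 for WT-actin minus parental (adjusted p = 0.627). All WT-actin signals of GGT7 lay below 10, where signals carry little information on a difference. Of 18 measured genes of glutathione reduction and peroxidases, 0, 1 and 0 had an unadjusted p under 0.05, against the shares of all genes given above. Their median log2 differences were 0.06, 0.05 and -0.007. GPX1, a peroxidase that uses glutathione, gave -0.36 for NLS-actin minus WT-actin (adjusted p = 0.674) and -0.39 for NLS-actin minus parental (adjusted p = 0.814), and PRDX6, a peroxiredoxin that is reduced through GSTP1, gave 0.39 for WT-actin minus parental (adjusted p = 0.744).

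The NRF2 pathway and targets had 30 measured genes, of which 1, 5 and 3 had an unadjusted p under 0.05 (backgrounds of 6.44, 6.69 and 9.47 percent of all genes), with medians of -0.06, 0.05 and -0.01. ALDH3A1, an aldehyde dehydrogenase that oxidises aldehydes from lipid peroxidation, read 566, 1066 and 510.1 in NLS-actin cells, 325, 237 and 253 in WT-actin cells, and 579, 1075 and 570.1 in parental cells. All WT-actin arrays lay below all arrays of both other lines. The log2 difference was -1.40 for WT-actin minus parental (SE 0.32, adjusted p = 0.185), 1.33 for NLS-actin minus WT-actin (adjusted p = 0.109) and -0.07 for NLS-actin minus parental (adjusted p = 0.984). HMOX1, heme oxygenase, read 22.7, 1.46 and 19.6 in NLS-actin cells, 37.6, 18.6 and 110.4 in WT-actin cells, and 34.7, 21.4 and 25.9 in parental cells. Its log2 difference was -2.30 for NLS-actin minus WT-actin (adjusted p = 0.485) and -1.63 for NLS-actin minus parental (adjusted p = 0.828). Both differences include NLS-actin replicate 2 at 1.46, below 10, where signals carry little information.

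The genes above the median level whose log2 signals over the 9 arrays were most like those of GSTM3 were PTPDC1 (Pearson correlation 0.975), STOM (0.969), MSI2 (0.942), WAC-AS1 (0.923) and LPCAT1 (0.921), of 9886 compared. PTPDC1 read 327, 414 and 342 in NLS-actin cells, 421, 426 and 532 in WT-actin cells, and 695, 622 and 579.6 in parental cells. Its order of lines is that of GSTM3, and NLS-actin replicate 2 is again the highest of its line. The log2 differences of PTPDC1 from the parental line were -0.81 in NLS-actin cells and -0.47 in WT-actin cells. Those of STOM were larger, at -2.36 and -1.54. Correlations with GSTM3 were also taken within lines, after the line means were removed. They were 0.82 for PTPDC1, 0.62 for STOM, 0.03 for MSI2, 0.78 for WAC-AS1 and 0.55 for LPCAT1. The likeness of MSI2 therefore rests on the line means, and the part of the line means in that of the other genes was not tested. The genes were ranked on these same arrays, so the within-line values are no separate test. Many genes shared their within-line deviations, whose first principal component took up 57.9 percent of the variance. The correlations are over 9 arrays of 3 lines and are a description.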

How the data were processed

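RNA of the 3 HaCaT lines was amplified with the Ovation kit and hybridised to U133 Plus 2.0 arrays. The authors deposited MAS5 intensity signals, 1 column per array, and a version of MAS5 is not given in the sources used here. Only these signals were analysed.

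The log2 of each signal was used, with no offset and no filter. Of 54613 probe sets (62 controls left out), 41091 carried 1 symbol, 41037 of them updated through Entrez identifiers, and 1801 carried several. Each of the 19775 genes was read from the probe set whose mean log2 signal was highest. Comparisons used limma 3.58.1 (R 4.3.3) on all 9 arrays, a mean for each line, an empirical Bayes variance with an intensity trend and Benjamini-Hochberg adjustment over all genes, or over all probe sets, at a threshold of 0.05. The fit was tested on simulated data. For 3 arrays against 3 the smallest p of an exact permutation test is 0.1.

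The members, the pathway lists and the tests were chosen with earlier results of these data known. Named genes are all members with all probe sets, in each pathway list the genes past the threshold and the 2 with the smallest adjusted p over the 3 comparisons, the 5 genes most correlated with GSTM3, and ACTB. Replicate numbers come from the labels. Residuals of arrays of the same number correlated at 0.23, 0.79 and 0.42 between NLS-actin and parental arrays. They correlated at -0.60, -0.40 and 0.16 between NLS-actin and WT-actin arrays, and at -0.08, -0.35 and 0.51 between WT-actin and parental arrays. Arrays of different number reached 0.53 (NLS-actin replicate 1 with parental replicate 3). The labels do not say what the numbers mark, so the main fit used no block, and replicate blocks were run as alternatives. Motifs were searched in the RefSeq promoter table of GRCh38.p14. MGST2 had no entry. Alternatives were the normalization, offset, dim filter, variance model, choice of probe sets, replicate block, 2 lines only, Tukey's test and omission of arrays. Figures were drawn with Python 3.11.15 and matplotlib 3.10.9.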

Additional observations from a re-analysis of the deposited data

How the results depend on the processing

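Under every alternative run, by gene and by probe set, 0 of the members other than GSTM3 passed the threshold against the parental line. These were 8 genes, or 7 with the dim filter and without probe sets ending in _x_at or _s_at. Between the actin lines 0 of the measured members passed, GSTM3 included. Of all 19775 genes, 4 (Tukey's test) to 30 (offset) passed for NLS-actin minus parental, apart from the block over 6 arrays below. No passing member is therefore close to the share of all genes. Among the 8, the lowest adjusted p for WT-actin minus parental was 0.385 (GSTA4, without the 3 arrays that stood apart) and among all 9 the lowest for NLS-actin minus WT-actin was 0.0549 (GSTM3, without NLS-actin replicate 2). The replicate block changed no call of a member: with it GSTM3 in NLS-actin minus WT-actin had an adjusted p of 0.277 over all 9 arrays and 0.181 within the NLS-actin and parental arrays. A block over the 6 NLS-actin and parental arrays alone was chosen after seeing the data. It gave 378 of 19775 genes past the threshold, and 0 of the 8 members, with a lowest adjusted p of 0.368 (MGST2). The direction of GSTM3 against the parental line follows from its choice on these same arrays, so its persistence is no test. As a description, it was lower in both actin lines under every alternative. The log2 differences were -3.30 to -1.73 for NLS-actin and -1.95 to -0.97 for WT-actin. The smallest came from the dim probe set alone, without probe sets ending in _x_at or _s_at (-1.73 and -0.97), and the mean of both probe sets gave -2.33 for NLS-actin. Its NLS-actin minus WT-actin difference ranged from -1.51 to -0.76.

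Several of the other members, none of which passed a test, changed sign. Without probe sets ending in _x_at or _s_at, only dim probe sets were left for MGST1 and MGST3. NLS-actin minus parental then became 0.67 for MGST1 and -0.40 for MGST3, WT-actin minus parental 0.10 for MGST1 and -1.03 for MGST3, and NLS-actin minus WT-actin 0.63 for MGST3, while GSTM4 had no probe set left and no value. With the mean of all probe sets, MGST3 gave -0.21 for NLS-actin minus parental and -0.12 for WT-actin minus parental, and MGST1 -0.035 for NLS-actin minus WT-actin. With quantile normalization, NLS-actin minus parental was -0.013 for GSTK1 and 0.043 for GSTA4, and WT-actin minus parental was -0.015 for GSTP1. Without the 3 arrays that stood apart, NLS-actin minus WT-actin was -0.17 for GSTP1 and -1.09 for MGST1. The cause of these changes was not tested, apart from the loss of probe sets.

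Omission of each array in turn gave ranges that crossed 0. For NLS-actin minus parental they were -1.01 to 0.00074 for GSTM4, -0.12 to 0.36 for GSTP1, -0.028 to 0.020 for GSTO1, -0.038 to 0.23 for GSTK1 and -0.89 to 0.46 for GSTA4. For WT-actin minus parental they were -0.41 to 0.083 for GSTM4 and -0.21 to 0.28 for GSTP1. For NLS-actin minus WT-actin they were -0.81 to 0.20 for GSTM4, -0.12 to 0.26 for GSTP1, -0.42 to 0.022 for GSTK1, -0.49 to 1.53 for MGST1 and -0.20 to 0.011 for MGST3.

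With 3 arrays per line, the number of arrays limits the precision, and signals near or below 10, as for MGST1, carry little information on any difference.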
